A study of Mus musculus with 69 samples.

Results

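Mymx and Mylpf are 2 genes of the skeletal muscle fibre that were followed here through every RNA-seq library of a study of mouse embryonic stem (ES) cells. They are the rows of these names in the 3 deposited expression tables, 2 of the 15924 genes in any of the tables. The pair was selected on these measured values: both had higher RPKM with GSK343 than with DMSO in day 4 embryoid bodies, at a stage before cardiac genes differed, so that comparison is given below as a description without a test. The cells are CJ7, a mouse ES cell line grown on feeder cells in medium with serum and LIF, and embryoid bodies made from them in hanging drops without LIF. GSK343 is an inhibitor of EZH2, the enzyme of Polycomb repressive complex 2 (PRC2) that places the repressive mark H3K27me3.

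The first experiment compared cells in 4 µM GSK343 with cells in the same volume of DMSO, from 3 days before differentiation to collection as ES cells, day 4 or day 8 embryoid bodies, with 2 libraries per group. The second compared wild-type CJ7 cells with cells labelled mutant (EZH2 mutant in the design text) at the same 3 stages, with 3 libraries per group. What the allele is, and whether the mutant line is 1 clone, was not given in the labels or the design text. In the third, embryoid bodies made in DMSO or GSK343 were moved into ES cell medium for 5 days with DMSO or GSK343, and carry a labelled age of 14 days. These replated groups, named by the first and then the second treatment, had 3 libraries each, except that replicate 3 of the group given GSK343 throughout was not analysed here. No label says that replicates came from separate cultures, so p-values measure the spread between these libraries only.

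Mymx encodes a short membrane protein, known as myomerger, minion or myomixer, that works with the membrane protein encoded by Mymk to fuse myoblasts into multinucleated fibres. Mylpf encodes the regulatory light chain of fast skeletal myosin, a subunit of the thick filament. In embryos both are known as genes of skeletal muscle switched on under the myogenic factors MYOD1, MYF5, MYOG and MYF6. Esgp, a synonym of Mymx in RefSeq, was given for a transcript of ES cells and germ cells. H3K27me3 marks many developmental genes that are silent in ES cells, among them regulators of muscle, and loss of EZH2 activity lowers the mark.

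On build GRCm38.p6 of RefSeq, the mm10 build that the submitters name, Mymx lies at chr17:45600961-45602196, with 976 bases in the deposited gene length. Mylpf lies at chr7:127208848-127214288, with 808 bases in the deposited gene length. The genes share neither a chromosome nor a neighbour. The sequence tables used here hold a start for Mylpf, on the plus strand. This start, chr7:127211608, and the window before it lie inside the span given above, not ahead of it. The 250 bases before this start, chr7:127211358-127211607, are printed because an E-box, the motif bound by myogenic factors among many other helix-loop-helix proteins, can be read from them.
Mylpf promoter: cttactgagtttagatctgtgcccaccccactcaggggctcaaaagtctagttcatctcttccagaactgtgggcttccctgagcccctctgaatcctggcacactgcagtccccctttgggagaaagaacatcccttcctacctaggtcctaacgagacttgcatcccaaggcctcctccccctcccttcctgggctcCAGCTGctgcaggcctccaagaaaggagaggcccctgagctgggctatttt
The capitals mark the 1 match to the E-box letters CANNTG on either strand, 51 bases before the start, which reads CAGCTG. An E-box is held by 66.2% of 32851 promoter windows of this length and CAGCTG by 13.0%. The window holds 1 CpG, against a median of 6 over all windows. The letters ATGCAAAT of the octamer and TCAAGGTCA of the Esrrb type had 0 matches on either strand, which says only that these letters are not in this window.

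The 12 DMSO and GSK343 libraries held 5.01 to 22.0 M recovered reads, the 18 libraries of the genotypes 7.17 to 28.5 M, and the 11 replated libraries 2.27 to 8.34 M. Ezh2, the gene named for the mutant, was lower in each of the 9 mutant libraries (18.3 to 26.5 RPKM) than in each of the 9 wild-type libraries (37.2 to 62.5 RPKM). In the wild-type groups library 3 stood apart at day 4 and day 8: the summed level of 7 ES cell markers, Pou5f1 with naive genes, at day 8 ran from 41.7 to 360 RPKM. Differences on these groups are therefore given with and without it where it was part of a comparison. Replicate 2 stood apart in another way: Rn45s, a ribosomal RNA gene, took 57.9% of recovered reads in wild-type day 4. It took 18.3% to 38.0% in replicate 2 of the other wild-type and mutant groups, and 4.08% to 13.4% in replicates 1 and 3. Which of these libraries is typical was not tested. In bulk samples such as these, fewer cells of a type and less RNA per cell cannot be told apart.

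Levels are RPKM (reads scaled to gene length and to the reads of the library), and differences are on the log2(RPKM + 1) scale, which understates the change of genes at a low level. Both transcripts were abundant in undifferentiated cells. In DMSO, Mymx stood at 73.9 and 64.0 RPKM in ES cells, at 1.16 and 0.712 RPKM on day 4 and at 1.37 and 0.643 RPKM on day 8. Mylpf stood at 67.1 and 60.0 RPKM in ES cells, at 5.05 and 5.28 RPKM on day 4 and at 1.73 and 1.98 RPKM on day 8. The ES cell libraries thus lay above all embryoid body libraries of the same treatment for both genes. By day 8 the mean of Mymx was 1.46% and that of Mylpf 2.92% of the ES cell mean.

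**Figure D1:**
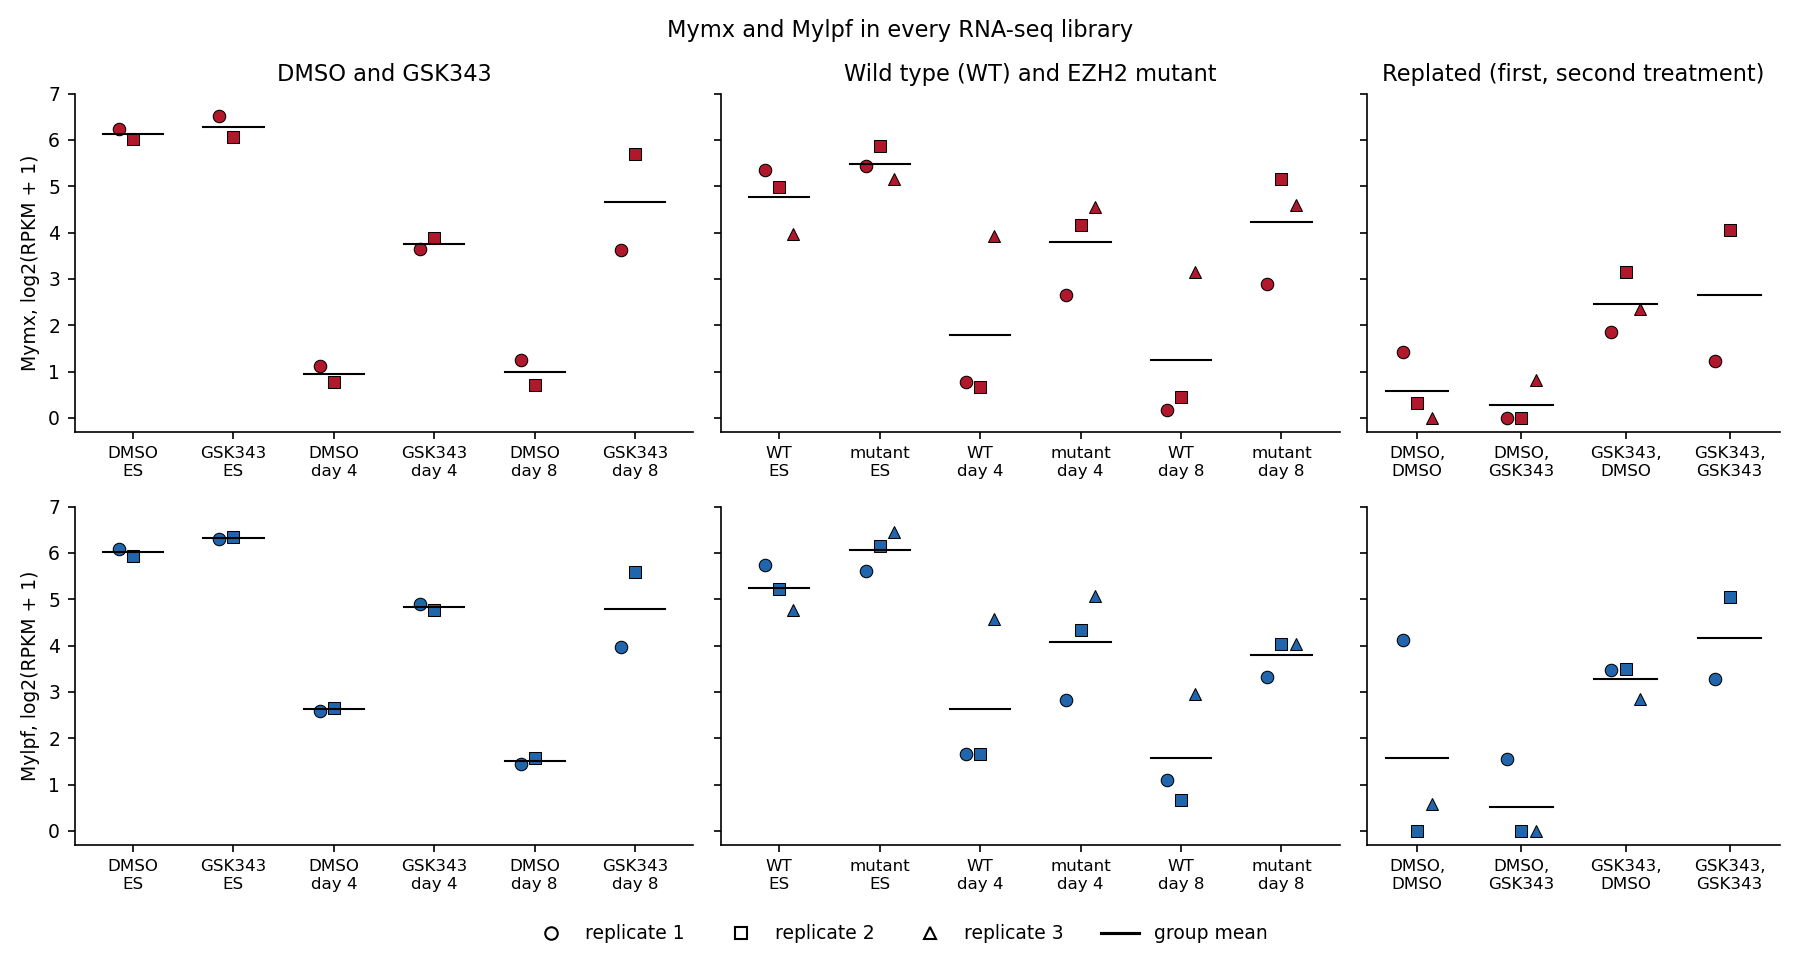
Level of Mymx (top, red) and Mylpf (bottom, blue) in each library, as log2(RPKM + 1), with the stage and treatment or genotype on the x axis, symbols for replicates and a line at each group's mean. ES cells sit high in every condition, and the GSK343 and mutant embryoid bodies sit mostly above their controls, with wild-type replicate 3 apart from replicates 1 and 2 on day 4 and day 8.

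By mean level, Mymx ran from GSK343 ES cells (77.8 ± 17.6 RPKM, SD, n = 2) and DMSO ES cells (68.9 ± 7.03), which overlapped, to GSK343 day 8 (31.0 ± 27.8) and day 4 (12.6 ± 1.65), which overlapped, and to DMSO day 8 (1.01 ± 0.516) and day 4 (0.936 ± 0.317), which overlapped. These 3 pairs of groups were apart from each other. Mylpf had the same order down to GSK343 day 4 (27.5 ± 2.04 RPKM), and then DMSO day 4 (5.16 ± 0.164) above DMSO day 8 (1.85 ± 0.172), and GSK343 day 8 (30.9 ± 23.0) and day 4 were the only neighbours in this order to overlap. In the wild-type and mutant libraries each group overlapped the next in the order of means for both genes.

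The fall from ES cells to day 8 passed the test in DMSO for both genes. Mymx fell by 5.14 (SE 0.51, limma adjusted p = 2.85e-05) and Mylpf fell by 4.50 (SE 0.38, adjusted p = 1.04e-05). Of the 14016 genes tested, 20.9% were called lower in this comparison, and 0.0143% had a larger fall than Mymx.

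Wild-type cells without DMSO gave the same course in replicates 1 and 2. Mymx was at 39.7, 30.4 and 14.6 RPKM in wild-type ES cells (replicates 1, 2 and 3), at 0.721, 0.597 and 14.1 RPKM on day 4 and at 0.120, 0.368 and 7.91 RPKM on day 8. Mylpf was at 52.4, 36.5 and 26.3 RPKM in ES cells, at 2.18, 2.16 and 23.0 RPKM on day 4 and at 1.16, 0.593 and 6.74 RPKM on day 8. Replicate 3 was the lowest of the 3 in ES cells and the highest on both later days, and its day 4 level of Mymx was close to its own ES cell level. In replicates 1 and 2 of day 8, Mymx rested on 2 and 3 reads, at or below the 3 reads that a count of 0 allows. Replicate 2 of day 4 held 2 reads of Mymx and 6 of Mylpf.

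In wild-type cells both genes fell from ES cells to day 8, Mymx by 3.50 (SE 0.90, limma adjusted p = 0.0103) and Mylpf by 3.67 (SE 0.74, adjusted p = 0.00286), where 14.4% of 14180 genes were called lower. Without replicate 1 of day 8 the value for Mymx was -2.96 (adjusted p = 0.0581), and without replicate 3 the values were -4.45 for Mymx and -4.36 for Mylpf. From ES cells to day 4, where 4.39% of genes were called lower, Mylpf fell by 2.61 (SE 0.74, adjusted p = 0.0393), and the difference for Mymx was -2.97 (SE 0.90, adjusted p = 0.0521). With the replicate number as a block, a pairing that the libraries' deviations bear out in this comparison, the adjusted p for Mymx was 0.0252. Without replicate 3 of day 4 the differences were -4.03 for Mymx (adjusted p = 0.00574) and -3.58 for Mylpf (adjusted p = 0.00230). The call for Mylpf was lost without replicate 1 or 2 of day 4 (-2.12, adjusted p = 0.185 and 0.197) and without replicate 1 (-2.36, adjusted p = 0.128) or 2 (-2.62, adjusted p = 0.10) of the ES cells, and Mymx was called without replicate 3 of the ES cells (-3.37, adjusted p = 0.0424). From day 4 to day 8 neither gene passed the test, with -0.54 for Mymx (95% interval -2.44 to 1.37) and -1.06 for Mylpf (-2.63 to 0.51), where 10.2% of genes were called lower. Without replicate 3 of day 4 these values were 0.53 and -0.09, so that the sign for Mymx turned, and without replicate 3 of day 8 they were -1.49 (adjusted p = 0.210) and -1.75 (adjusted p = 0.0895). In the authors' deposited table the change from day 4 to day 8 was -0.86 for Mymx (adjusted p = 0.215) and -1.65 for Mylpf (adjusted p = 0.00480). There 17.1% of genes had an adjusted p under 0.05. Their change from ES cells to day 4 was -2.43 for Mymx (adjusted p = 1.77e-05) and -2.07 for Mylpf (adjusted p = 0.000309). In that comparison 13.2% of genes were under 0.05.

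In ES cells neither gene differed between GSK343 and DMSO by the test, while on day 8 both were higher with GSK343. In GSK343 ES cells Mymx stood at 90.2 and 65.3 RPKM and Mylpf at 77.1 and 80.4 RPKM. The treatments overlapped for Mymx and did not for Mylpf, in a comparison where 0% of the 14016 genes was called by limma and 669 had an unadjusted p under 0.05. Against DMSO the differences were 0.16 for Mymx (95% interval -0.97 to 1.29) and 0.31 for Mylpf (-0.54 to 1.16), with adjusted p of 1 for both.

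On day 4, the comparison that chose the genes, Mymx stood at 11.4 and 13.8 RPKM with GSK343 (194 and 253 reads), against 1.16 and 0.712 RPKM in DMSO (20 and 15 reads). Mylpf stood at 28.9 and 26.0 RPKM with GSK343 (406 and 396 reads), against 72 and 92 reads in DMSO. The treatments did not overlap for either gene, and 0.499% of genes were called higher in this comparison. The difference was 2.82 for Mymx and 2.21 for Mylpf. As this contrast chose the pair, nothing is read from its size or from the lists in it. The rule also used cardiac genes: a list of 22 cardiac muscle genes, of which 19 were tested, had 0 genes called on day 4 and a median difference of 0.000977, against -0.02 over all genes. Of 24 naive pluripotency genes, 10 were called higher there, with a median of 1.40.

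Day 8 libraries were not used to choose the genes. The day 4 libraries that chose them do enter the estimate of spread, as in every test of the DMSO and GSK343 libraries. The p-values are therefore not fully free of that choice. With GSK343, Mymx was at 11.4 and 50.6 RPKM (244 and 917 reads) and Mylpf at 14.6 and 47.2 RPKM (260 and 708 reads) on day 8. Replicate 2 was higher than replicate 1 for both genes, and both replicates lay above both DMSO libraries. Mymx was higher than in DMSO by 3.68 (SE 0.51, limma adjusted p = 0.000421) and Mylpf by 3.27 (SE 0.38, adjusted p = 0.000150). On that day 15.6% of the 14016 genes were called higher and 16% lower, so the call itself is common, while 99.8% of genes for Mymx and 99.7% for Mylpf had a smaller difference. Without replicate 2 of GSK343 the differences were 2.65 for Mymx (adjusted p = 0.000185) and 2.45 for Mylpf (adjusted p = 9.83e-06), and both were still called.

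**Figure D2:**
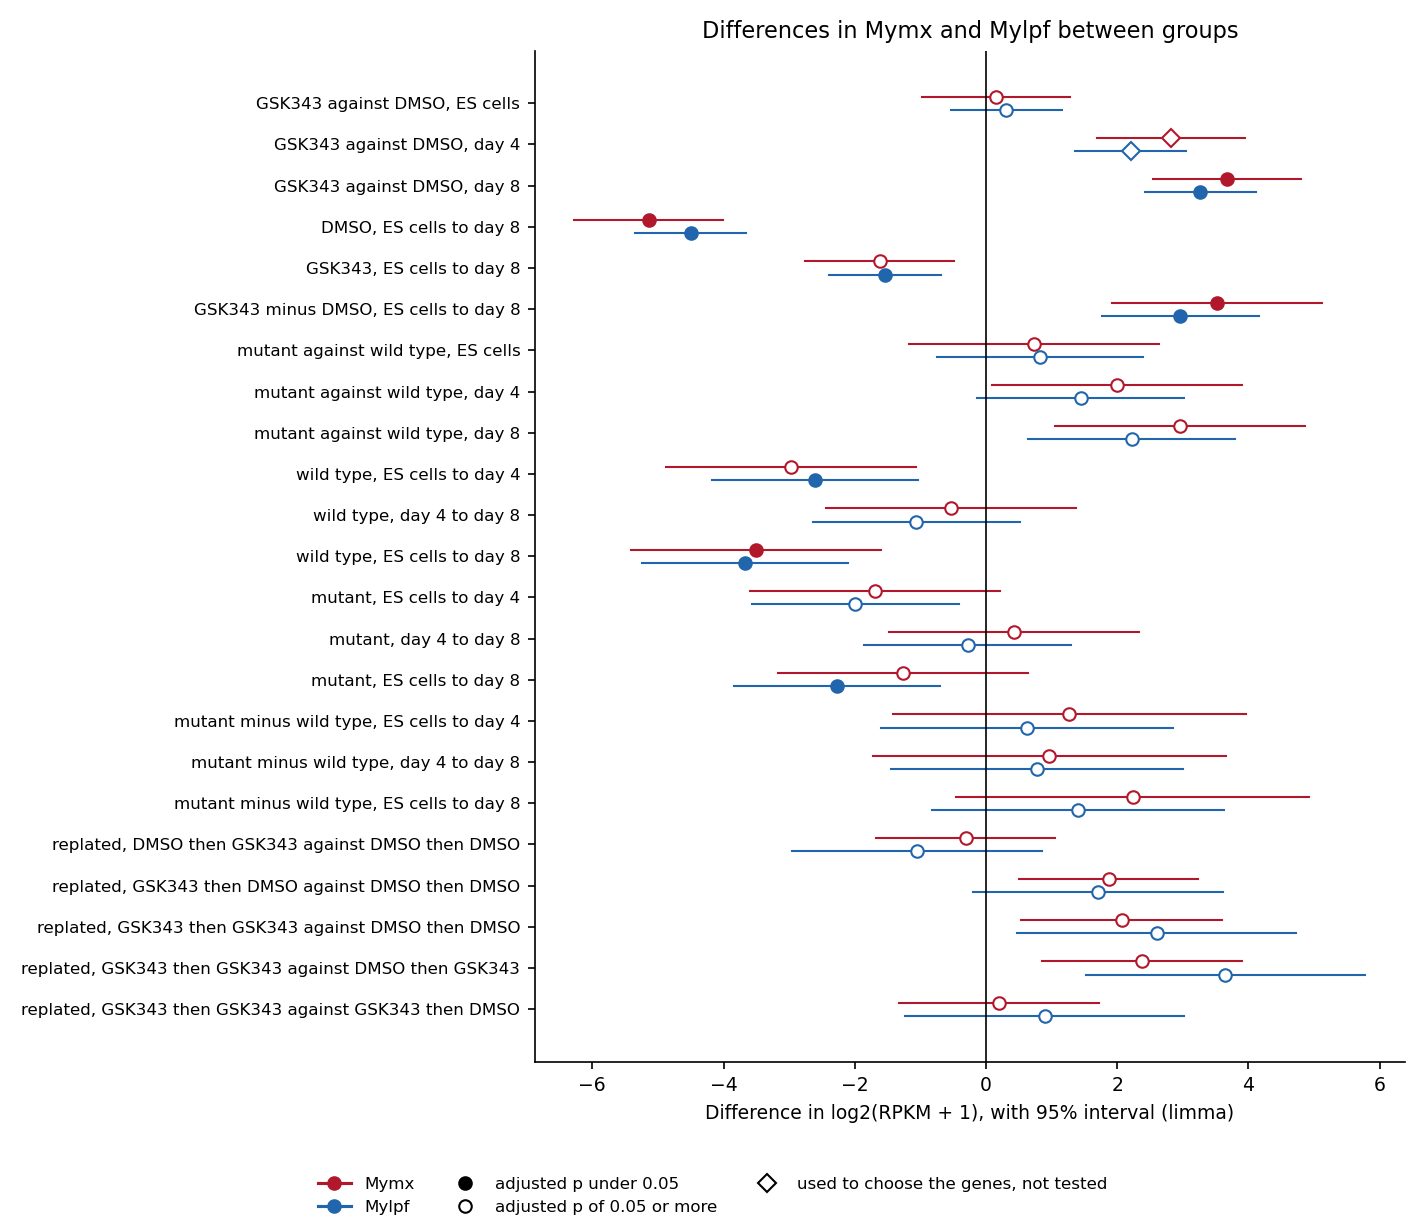
Difference in log2(RPKM + 1) for Mymx (red) and Mylpf (blue) in each comparison, with the 95% interval of the limma fit, filled where the adjusted p was under 0.05. The day 4 difference of GSK343, drawn as diamonds at 2.82 and 2.21, chose the genes and has no test, and the day 8 difference stands at 3.68 and 3.27.

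Within GSK343 the difference from ES cells to day 8 was -1.62 for Mymx (SE 0.51, limma adjusted p = 0.0656) and -1.54 for Mylpf (SE 0.38, adjusted p = 0.0278), in a comparison with 4.52% of genes called lower. Mymx was called (-2.65, adjusted p = 0.000498) without replicate 2 of GSK343 day 8, and without replicate 1 the values were -0.59 for Mymx (adjusted p = 0.266) and -0.73 for Mylpf (adjusted p = 0.0212). The call for Mylpf was lost without GSK343 ES cell replicate 1 (-1.57, adjusted p = 0.0854) or 2 (-1.51, adjusted p = 0.133), and with only the 2 groups compared in the fit (adjusted p = 0.202). The difference between the GSK343 and DMSO courses was itself tested, and was 3.52 for Mymx (SE 0.72, adjusted p = 0.00728) and 2.96 for Mylpf (SE 0.54, adjusted p = 0.00418), where 8.94% of genes were called higher. On day 8 with GSK343, the mean of Mymx was 39.9% and that of Mylpf 39.3% of the ES cell mean. The replicates lay far apart, at 14.6% and 65.1% for Mymx and at 18.6% and 60.0% for Mylpf. The naive pluripotency genes Esrrb and Zfp42 (Rex1) stood at 36.7% and 50.3% and the pluripotency gene Pou5f1 (Oct4) at 90.4%, against 2.26%, 2.07% and 10.2% in DMSO. Pou5f1 did not follow the naive genes on day 4 in DMSO, where it stood at 104%, Esrrb at 6.78% and Zfp42 at 12.6%. Over the 24 naive genes the median difference from ES cells to day 8 with GSK343 was -0.64, and 10 were called lower.

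**Figure D3:**
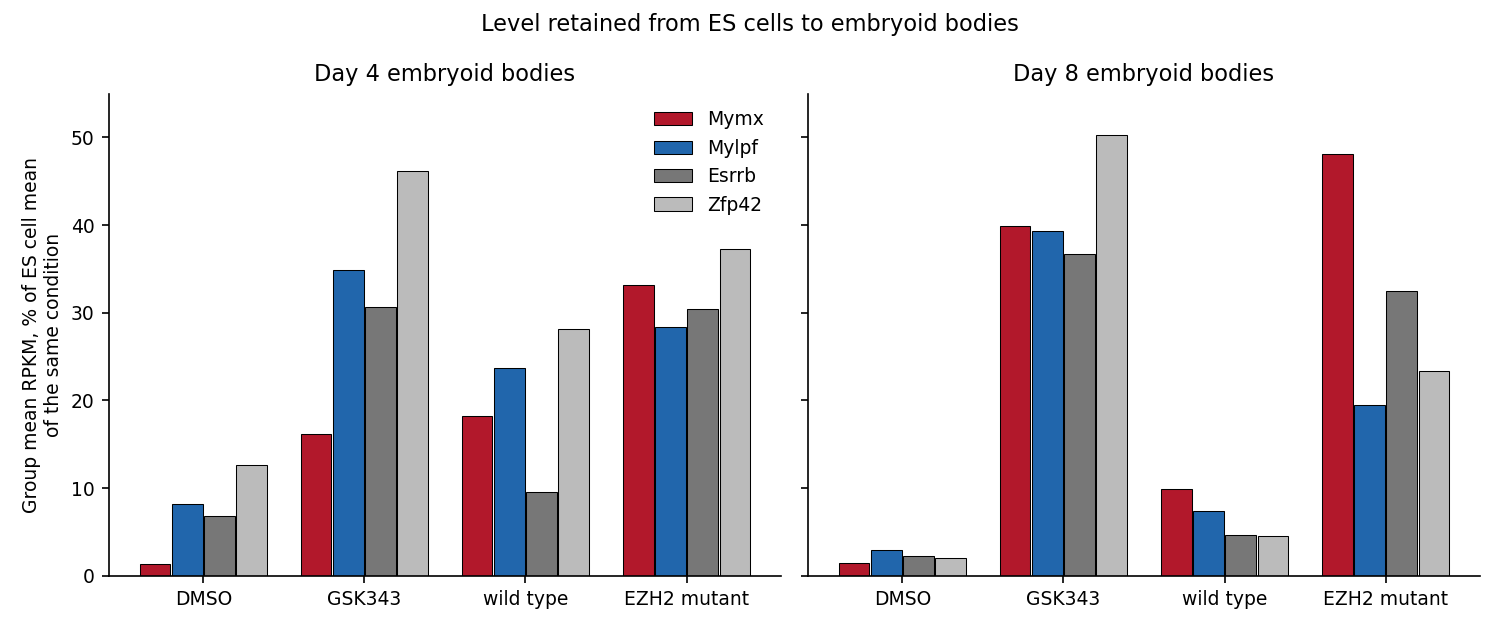
Mean RPKM of Mymx, Mylpf and the naive pluripotency genes Esrrb and Zfp42 in day 4 (left) and day 8 (right) embryoid bodies, as a percentage of the ES cell mean of the same condition, with no error shown because each bar is a ratio of group means. On day 8 the 4 genes stand at 1.46% to 2.92% in DMSO and at 36.7% to 50.3% in GSK343, where single libraries of Mymx stood at 14.6% and 65.1%.

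In EZH2-mutant cells both genes had higher means than in wild type at each stage, and no comparison with wild type was called for either gene. Mymx was at 42.4, 56.9 and 34.9 RPKM in mutant ES cells, at 5.32, 16.9 and 22.3 RPKM on day 4 and at 6.43, 34.7 and 23.3 RPKM on day 8. Mylpf was at 47.9, 69.6 and 86.6 RPKM in mutant ES cells, at 6.07, 19.3 and 32.6 RPKM on day 4 and at 9.01, 15.4 and 15.3 RPKM on day 8. The genotypes overlapped at each stage for Mymx. For Mylpf they overlapped in ES cells and on day 4, and on day 8 the 3 mutant libraries lay above the 3 wild-type libraries, in a comparison where 1.3% of genes were called higher.

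Against wild type the ES cell difference was 0.73 for Mymx (95% interval -1.18 to 2.63) and 0.82 for Mylpf (-0.75 to 2.39), with 0.0635% of 14180 genes called higher. On day 4, with 0.0282% called higher, it was 2.00 for Mymx (0.09 to 3.90) and 1.44 for Mylpf (-0.13 to 3.01), each with an adjusted p of 1. Without wild-type replicate 3 these values were 3.06 (adjusted p = 0.130) and 2.41 (adjusted p = 0.120). With the replicate number as a block on day 4, a pairing that the deviations bear out, neither was called (adjusted p = 0.583 and 0.616).

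On day 8 the difference was 2.96 for Mymx (SE 0.90, limma adjusted p = 0.116) and 2.22 for Mylpf (SE 0.74, adjusted p = 0.153). Without wild-type replicate 3 both passed the test, Mymx at 3.91 (adjusted p = 0.0123) and Mylpf at 2.91 (adjusted p = 0.0256). Without mutant replicate 1 the value for Mymx was 3.62 (adjusted p = 0.0498). In mutant cells Mylpf fell from ES cells to day 8 by 2.27 (SE 0.74, adjusted p = 0.0450), a call lost without any 1 of the 6 libraries, and the difference for Mymx was -1.27 (adjusted p = 0.340), where 8.96% of genes were called lower. The test of the difference between the mutant and wild-type courses to day 8 gave 2.23 for Mymx (adjusted p = 0.918) and 1.40 for Mylpf (adjusted p = 0.994), and 0 genes were called higher and 1 lower. Without wild-type day 8 replicate 3 these values were 3.18 (adjusted p = 0.218) and 2.09 (adjusted p = 0.383). From ES cells to day 4 in the mutant the differences were -1.70 for Mymx (adjusted p = 0.308) and -1.99 for Mylpf (adjusted p = 0.132), where 3.27% of genes were called lower. With the replicate number as a block, which the pairing of deviations bears out here, Mylpf was called at an adjusted p of 0.0464. From day 4 to day 8 they were 0.43 (95% interval -1.47 to 2.33) and -0.28 (-1.85 to 1.29), where 5.99% of genes were called higher and 4.35% lower. The authors' deposited change from ES cells to day 4 in the mutant was -1.58 for Mymx (adjusted p = 0.00771) and -1.81 for Mylpf (adjusted p = 0.00167). There 12.5% of genes had an adjusted p under 0.05. From day 4 to day 8 the authors gave 0.53 (adjusted p = 0.616) and -0.54 (adjusted p = 0.602).

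After replating, both genes were at or near 0 reads in most cultures first differentiated in DMSO and had reads in each culture first differentiated in GSK343. Mymx had 6, 2 and 0 reads in DMSO then DMSO (1.70, 0.246 and 0 RPKM) and 0, 0 and 4 reads in DMSO then GSK343 (0, 0 and 0.765 RPKM). It had 10, 24 and 24 reads in GSK343 then DMSO (2.63, 7.80 and 4.11 RPKM) and 3 and 42 reads in GSK343 then GSK343 (1.36 and 15.7 RPKM). A count of 0 allows up to 3 reads, which was between 0.609 and 1.22 RPKM for Mymx in the 3 libraries at 0, by counting error alone. GSK343 then DMSO lay above DMSO then DMSO for Mymx, and replicate 1 of GSK343 then GSK343 lay below replicate 1 of DMSO then DMSO.

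Mylpf was at 16.4, 0 and 0.491 RPKM in DMSO then DMSO (48, 0 and 2 reads) and at 1.92, 0 and 0 RPKM in DMSO then GSK343 (6, 0 and 0 reads). It was at 10.2, 10.2 and 6.20 RPKM in GSK343 then DMSO (32, 26 and 30 reads) and at 8.74 and 32.0 RPKM in GSK343 then GSK343 (16 and 71 reads). Replicate 1 of DMSO then DMSO stood apart from replicates 2 and 3 and overlapped the groups first given GSK343. That replicate also held 104 RPKM of Zfp42, against 1.73 and 4.29 RPKM in replicates 2 and 3.

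In the limma fit none of the replated comparisons called either gene, and 0% of the 14367 genes was called in each of them. Between 196 and 3385 genes had an unadjusted p under 0.05. GSK343 then DMSO differed from DMSO then DMSO by 1.87 for Mymx (adjusted p = 0.169) and by 1.71 for Mylpf (adjusted p = 0.248). Without replicate 1 of DMSO then DMSO the value for Mylpf was 2.98, with an adjusted p of 0.0153, and without replicate 2 it was 0.92, with an adjusted p of 0.638. GSK343 then GSK343 differed from DMSO then GSK343 by 2.37 for Mymx (adjusted p = 0.142) and by 3.65 for Mylpf (adjusted p = 0.128). Without replicate 1 of GSK343 then GSK343, which leaves 1 library assumed to vary like the other groups, the values were 3.79 (adjusted p = 0.0147) and 4.53 (adjusted p = 0.0326). Without its replicate 2 they were 0.96 and 2.77, both with an adjusted p of 0.925.

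Calls in the replated cultures turned on single libraries. GSK343 then GSK343 differed from DMSO then DMSO by 2.07 for Mymx and 2.60 for Mylpf, with an adjusted p of 0.319 for both. Mymx was called there without replicate 1 of GSK343 then GSK343 (3.48, adjusted p = 0.0279), and Mylpf without replicate 1 of DMSO then DMSO (3.88, adjusted p = 0.0138). Without replicate 2 of GSK343 then GSK343 the values were 0.65 and 1.72, both with an adjusted p of 1. DMSO then GSK343 against DMSO then DMSO gave a difference of -0.31 for Mymx (95% interval -1.67 to 1.06) and -1.05 for Mylpf (-2.95 to 0.86), where the median over all genes was -0.23. Withdrawal after GSK343 differentiation was compared through GSK343 then GSK343 against GSK343 then DMSO, which differed by 0.20 (-1.33 to 1.72) and 0.89 (-1.24 to 3.02). Without replicate 2 of GSK343 then GSK343 these were -1.21 and 0.01, so that the sign for Mymx turned. In the authors' deposited table GSK343 then DMSO against DMSO then DMSO had a log2 change of 2.73 for Mymx (adjusted p = 0.00958) and 0.65 for Mylpf (adjusted p = 0.480), with 7.49% of genes at an adjusted p under 0.05. The authors' deposited table gave 4.60 for Mymx and 4.79 for Mylpf in GSK343 then GSK343 against DMSO then GSK343, with adjusted p of 3.38e-05 and 2.69e-06, and 9.14% of genes there were under 0.05.

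Skeletal muscle markers that could be measured stood low in ES cells, where Mymx and Mylpf were high. Of 15 skeletal muscle markers, 5 had rows in the DMSO and GSK343 table (Cdh15, Acta1, Myh3, Tnni2 and Tnnt3), and their summed level was 3.12 to 3.31 RPKM in DMSO ES cells. On day 8 in DMSO, with Mymx and Mylpf at about 1 to 2 RPKM, this sum was 22.6 to 46.1 RPKM, most of it Acta1 (skeletal actin, mean 26.7 RPKM). With GSK343 on day 8 it was 3.72 to 37.9 RPKM. On day 4 it was 1.48 to 2.03 RPKM in DMSO and 1.20 to 1.90 RPKM with GSK343, and all 5 group means were under 1 RPKM. Myod1, Myf5, Myog, Myf6 and Mymk, the regulators and the fusion partner, were not analysed here. The label of a muscle programme is thus not borne out by the markers measured, and the genes are called by their names.

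Among fast skeletal contractile genes (a list of 21, with 12 rows and 10 tested, Mylpf included), 5 rose and 3 fell with GSK343 on day 8, and their median difference was 0.08 against 0.00 for all genes, of which 15.6% were called higher and 16% lower. The count includes Mylpf itself. Those that rose besides Mylpf were Actn3, a Z-disc actinin (1.24, adjusted p = 0.000520), Myh3, the embryonic myosin heavy chain (1.03, adjusted p = 0.000350), Mybpc2, fast myosin-binding protein C (0.80), and Ryr1, the calcium release channel (0.70). They stood low: Myh3 was at 0.0482 RPKM in DMSO and 1.14 RPKM with GSK343 on day 8, and Actn3 at 1.73 and 5.43 RPKM. Actn3, Myh3, Mybpc2 and Ryr1 also fell from ES cells to day 8 in DMSO. In that comparison 5 of the 10 tested were called lower, Mylpf among them, and 5 higher, with a median of 0.12. Of all 14016 genes, 2923 were called lower there and 3929 higher, so the list as a whole did not share the fall. Tnnt3, fast troponin T, fell with GSK343 on day 8 (-1.65, adjusted p = 6.57e-05), at 3.54 RPKM in DMSO and 0.462 RPKM with GSK343. So did Eno3, the muscle enolase (-1.08, adjusted p = 0.0441), and Atp2a1, the calcium pump of fast fibres (-0.54, adjusted p = 0.00892).

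Among myoblast fusion and adhesion genes (12 listed, 9 tested, Mymx included), 2 rose, Mymx itself among them, and 5 fell with GSK343 on day 8, beside 15.6% of all genes called higher and 16% lower, and the median was -0.74. Jam2, an adhesion molecule of cell junctions, rose with Mymx (2.71, adjusted p = 0.000103). Boc (-1.76), a receptor of myoblast adhesion, Ncam1 (-1.37), Jam3 (-0.97), Cdon (-0.74) and Dysf (-1.29), a membrane repair protein, fell. Jam2 stood at 22.5 and 19.0 RPKM in DMSO ES cells and at 0.581 and 0.521 RPKM on day 8, a course like that of Mymx.

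Myogenic regulators (17 listed, 8 tested) changed in both directions with GSK343 on day 8, with 3 called higher and 3 lower. Over all genes 15.6% were called higher and 16% lower. Those that rose included the homeobox gene Six4 (1.13, adjusted p = 0.00103) and the repressor Msc (0.90). Mef2c (-2.31, adjusted p = 9.90e-07), Mef2a (-0.86) and Eya1 (-0.65) fell. In the myosin light chain family (16 listed, 10 tested, Mylpf included), 1 gene was called higher, Mylpf itself, and 4 lower, beside the same shares of all genes. Those that fell were Mylk3, Myl7 and Myl4, which act in heart muscle, and the widely expressed Myl6. Myl7 stood at 38.2 RPKM in DMSO and 13.5 RPKM with GSK343 on day 8, and Myl4 at 34.8 and 7.62 RPKM.

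Cardiac muscle genes went the other way from Mymx and Mylpf on day 8. Of 19 tested, 15 fell with GSK343 and 0 rose, where 16% of all genes were called lower, with a median of -1.87, among them the transcription factors Hand2 (-5.35), Hand1 (-4.98) and Tbx20 (-3.67), which act in the forming heart. Slow or shared striated genes had 5 lower and 1 higher of 9, led by Tnni1, slow troponin I (-5.10). Naive pluripotency genes were higher: 21 of 24 were called higher and 0 lower with GSK343 on day 8, with a median of 3.18, and 16 of 20 germline genes were called higher with a median of 1.85, where 15.6% of all genes were called higher. The summed level of 7 ES cell markers, Pou5f1 with naive genes, was 83.5 to 98.9 RPKM in DMSO and 681 to 934 RPKM with GSK343 on day 8, all 7 above 1 RPKM. Most of it was Pou5f1 (means of 57.7 and 443 RPKM), so the sum is no measure of naive genes alone. The part of these genes in the levels of Mymx and Mylpf was not tested. Fibroblast genes of the kind feeder cells express were lower with GSK343 on day 8, 4.27 to 13.9 RPKM summed over 8 markers against 50.1 to 153 RPKM. The ES cell libraries, from cells grown on feeders, held 64.9 to 86.3 RPKM of these markers in DMSO and 97.3 to 171 RPKM with GSK343. In that ES cell comparison 15 of 15 smooth muscle and fibroblast genes had a positive difference, with a median of 0.64 against 0.04 over all genes, and 0 were called, and their part in the levels of the pair was not tested. In the replated cultures the 8 markers summed to 638 to 6674 RPKM, while Mymx was at most 15.7 and Mylpf at most 32.0 RPKM.

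The library that stood apart in a group did so for Mymx, Mylpf and naive genes together. In wild-type day 8 replicate 3, Zfp42 was at 31.2 RPKM and Esrrb, a naive pluripotency factor, at 11.4 RPKM, against 1.68 and 1.80 RPKM and 0.543 and 0.622 RPKM in replicates 1 and 2. On day 4 Zfp42 was at 198 RPKM in replicate 3 and at 11.7 and 7.28 RPKM in replicates 1 and 2. In GSK343 day 8, replicate 2 exceeded replicate 1 in Zfp42 (237 against 113 RPKM) and in Esrrb (38.6 against 22.5 RPKM) as it did in both genes.

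Likeness of pattern was measured by Pearson's r of log2(RPKM + 1) over the 18 wild-type and mutant libraries, which share stages and sources, and is given as a description. Mymx and Mylpf had r = 0.952 with each other there, 0.968 over the 12 DMSO and GSK343 libraries and 0.824 over the 11 replated libraries. The DMSO and GSK343 libraries include the day 4 libraries that chose the pair, so r there is partly set by that choice. Without replicate 3 of wild-type day 4 and day 8, a setting chosen after seeing the data, r over the other 16 libraries was 0.955. Among 14179 other genes, Mylpf ranked 29 by likeness to Mymx and Mymx ranked 22 by likeness to Mylpf. The libraries fall into 3 stages, and within a stage of 6 libraries r was 0.762 in ES cells (Spearman's rho 0.600), 0.985 on day 4 (0.943) and 0.971 on day 8 (0.886).

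The 10 named genes most like Mymx were Tex14, Hsf2bp, Dnd1, Ooep, Liph, Ubap1l, Platr26, Triml2, Triml1 and Slc17a9, with r from 0.963 to 0.973. Tex14, Hsf2bp, Dnd1 and Ooep are known from germ cells and eggs. Those most like Mylpf were Manba, Tcl1, Lexm, Sept1, Itgb7, Jam2, Fam25c, Zfp42, Morc1 and Nr5a2, with r from 0.964 to 0.979. Tcl1, Zfp42 and Nr5a2 are known from naive ES cells, Itgb7 and Jam2 encode adhesion proteins, and Morc1 acts in germ cells. The neighbours depended on the measure: by Spearman's rho 1 of the 10 for Mymx and 5 of the 10 for Mylpf stayed among the 10. Without replicate 3 of wild-type day 4 and day 8, 6 of the 10 for Mymx and 9 of the 10 for Mylpf did.

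Within the 6 ES cell libraries, r with Zfp42 was 0.448 for Mymx and 0.825 for Mylpf, and with Esrrb 0.681 and 0.117. Within day 4 and within day 8 these values were 0.911 to 0.993. Median r over a list was taken across the stages, so differences between ES cells and embryoid bodies enter it. This median was 0.873 for Mymx and 0.867 for Mylpf over 24 naive pluripotency genes, and 0.706 and 0.547 over 20 germline genes. It was 0.282 and 0.366 over 11 other fast skeletal contractile genes, -0.348 and -0.354 over 8 myogenic regulators and -0.464 and -0.547 over 21 cardiac muscle genes. Over all other genes it was 0.01 for both. Without replicate 3 of wild-type day 4 and day 8 it was 0.878 and 0.873 over the naive list and -0.487 and -0.571 over the cardiac list. The naive list had the highest median in each of the 3 tables for both genes. The median of the other fast skeletal contractile genes differed between tables. Over the replated libraries it was 0.753 for Mymx and 0.557 for Mylpf, and over the DMSO and GSK343 libraries 0.154 and 0.093. In the replated table only the naive list lay higher for Mymx, and the naive and germline lists did for Mylpf. The DMSO and GSK343 table includes the day 4 libraries that chose the pair.

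**Figure D4:**
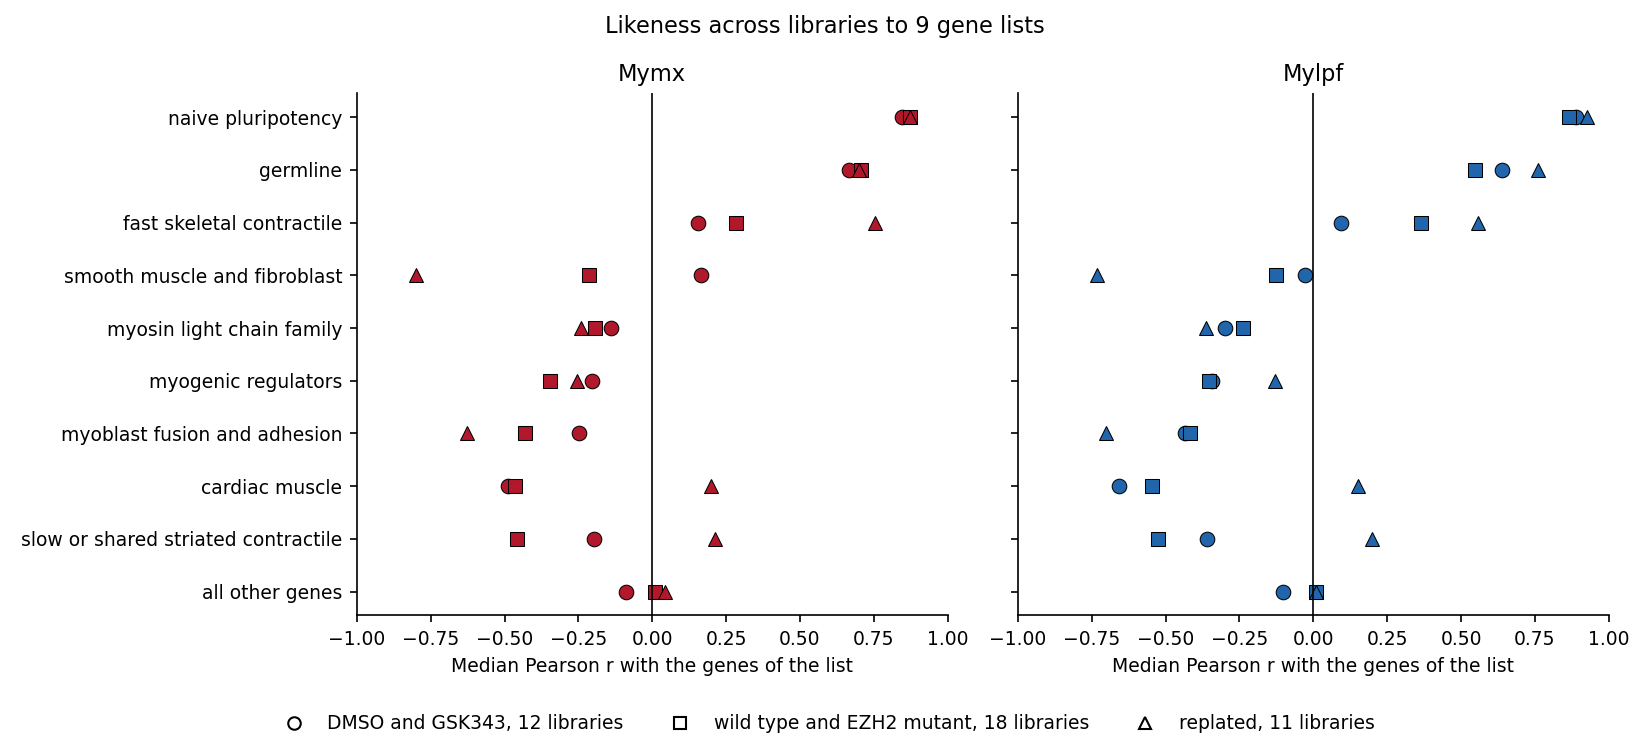
Median Pearson r of Mymx (left) and Mylpf (right) with the genes of 9 lists and with all other genes, across the libraries of each table (symbols), on log2(RPKM + 1). The naive pluripotency list lies at 0.847 to 0.925 for both genes in all 3 tables, and the cardiac list lies below 0 in 2 tables and above 0 in the replated table. The DMSO and GSK343 values include the day 4 libraries that chose the pair.

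The H3K27me3 peaks deposited near the genes differed. An H3K27me3 peak of 3114 bases, chr17:45599417-45602530, in the authors' set merged over wild-type ES cells, day 4 and day 8 from CUT&RUN, covers 100% of Mymx. It also reaches into the near end of Slc29a1, at chr17:45599618. CUT&RUN maps a mark or protein by cutting the DNA beside a bound antibody. The nearest H3K27me3 peak to Mylpf is 86.3 kb away. The deposited PRC2 target call is YES for Mymx, as for 32.2% of 14833 genes, and NO for Mylpf. Of 14516 genes placed from the wild-type and mutant table, 29.1% overlapped an H3K27me3 peak and 39.3% had one within 5 kb. No Ezh2, Ring1B or Suz12 peak lay within 5 kb of either gene in the other 3 merged sets or in the 9 Suz12 lists of single libraries. Those merged sets are small, with 450 Ezh2, 782 Ring1B and 491 Suz12 peaks against 11884 of H3K27me3, and the single lists hold 1000 to 8810 peaks. The nearest to Mymx was a Suz12 peak of mutant day 4 replicate 2 at 9.56 kb. As the merged set holds no peak per stage, the presence of the mark at Mymx in ES cells, where its transcript was abundant, cannot be told apart from its presence on later days.

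**Figure D5:**
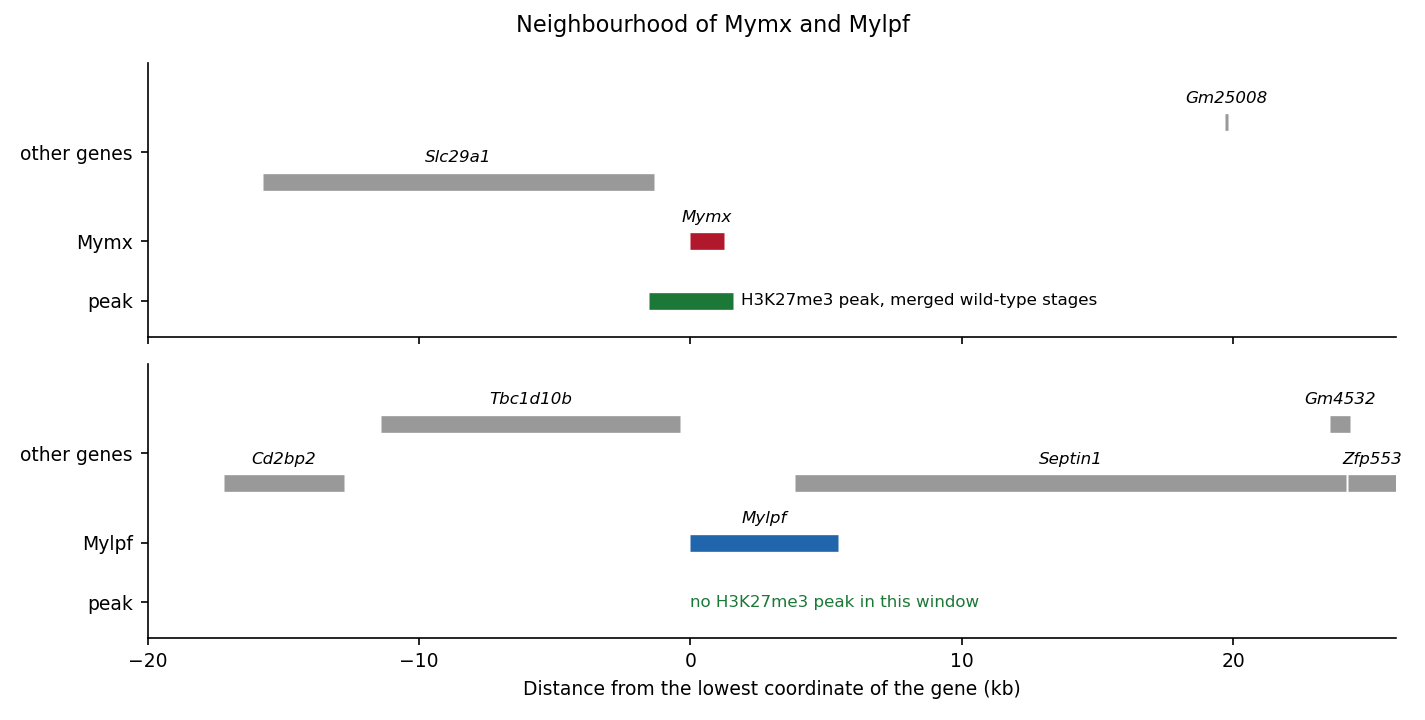
Genes (RefSeq, grey for other genes) and the H3K27me3 peak of the merged wild-type set (green) around Mymx (top) and Mylpf (bottom), by distance in kb from the lowest coordinate of each gene. The peak spans Mymx and reaches into the near end of Slc29a1, a gene 1343 bases from Mymx. Mylpf has no H3K27me3 peak in the window and shares 1580 bases with Septin1.

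Septin1, named Sept1 in the tables, overlaps the span of Mylpf by 1580 bases, and no source says whether counting used strand, so reads of the shared bases cannot be told apart. Sept1 stood at 20.3 and 21.0 RPKM in DMSO ES cells and 1.05 and 0.863 RPKM in DMSO on day 8, below Mylpf in each of these libraries. With GSK343 on day 8 it stood at 11.4 and 24.8 RPKM and was higher than in DMSO by 3.19 (adjusted p = 2.29e-05). In the mutant it was called higher on day 8 (2.87, adjusted p = 0.0404, and 3.41, adjusted p = 0.00571, without wild-type replicate 3). Whether this differs from the 2.22 of Mylpf was not tested. In the replated cultures Sept1 stood above Mylpf in 10 of the 11 libraries, the exception being replicate 1 of DMSO then GSK343. It was at 19.1 to 144 RPKM in the 5 libraries first given GSK343.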

How the data were processed

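RNA-seq of CJ7 cells gave 3 tables of RPKM values that the authors deposited, along with gene lengths. Per the file headers, the authors also deposited log2 fold changes and adjusted p-values (FDR) for comparisons of their own. STAR 2.5.3, featureCounts 1.6.1, edgeR, Bowtie2 2.3.4.3 and HOMER 4.10.3 and build mm10 are named in the submitters' processing notes. No source read here states the gene annotation or whether counting used strand. The deposited RPKM times length falls in steps of whole reads (100% of values within 0.02 of a read), from which reads were recovered. The wild-type and mutant table carries a further scaling per library, and 138 of its genes have no length. The tables were normalized apart, so tests stay within a table.

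The values were tested as log2(RPKM + 1) with limma 3.58.1 (R 4.3.3, trended variance, all groups of a table in 1 fit) over genes at 0.5 RPKM or more in at least the smallest group's number of libraries. P-values were adjusted by Benjamini-Hochberg over all genes of a comparison, two-sided, with a threshold of 0.05. The 2 genes entered 22 tested comparisons, 44 tests in all. RPKM precision follows reads, and limits from 0 reads cover counting error only. The scripts were tested on simulated data. Peaks were searched within 5 kb. Other genes named are up to 4 called members per direction of each of 9 lists with the smallest p in a comparison, and the 10 genes most like each member, without predicted and RIKEN genes. Dysf, Ryr1, Slc29a1 and Tbc1d10b fall outside this rule and were chosen after their values were seen. The genes and the lists were chosen with earlier results of these data known. Some results on single genes of the lists are not reported here.

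Same-numbered replicates deviated together, with every pair's correlation of deviations over 0.1, in mutant against wild type on day 4 (0.637, 0.290 and 0.806), wild type from ES cells to day 4 (0.292, 0.151 and 0.260) and from day 4 to day 8, and mutant in both of these steps. Comparisons with 2 pairs, too few to judge, are left out of this list. The pairing comes from these correlations, and no label says what a number shares.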

Additional observations from a re-analysis of the deposited data

Results flagged for a closer look

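The course from ES cells to day 8 differed between GSK343 and DMSO for both genes, by a test of the difference itself in limma. The day 4 libraries that chose the pair are not compared in it but enter its estimate of spread. The difference was 3.52 on the log2(RPKM + 1) scale for Mymx (95% interval 1.92 to 5.12) and 2.96 for Mylpf (1.76 to 4.16). Both GSK343 libraries of day 8 lay above both DMSO libraries for each gene, and GSK343 replicate 2 (50.6 RPKM of Mymx) stood well above replicate 1 (11.4 RPKM). Leaving out each library in turn gave 2.49 to 4.55 for Mymx and 2.15 to 3.77 for Mylpf, with adjusted p up to 0.0342 and 0.0182. Naive pluripotency genes took the same direction in this comparison, and their part in it was not tested. Groups of 2 or 3 libraries are too small for a search for single outlying libraries.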

How the results depend on the processing

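Under alternatives other than leaving out a library, 262 values of the pair counted as unchanged, 4 moved, 5 gained a call, 5 lost one and 0 reversed. A tested value was unchanged if it kept its side of the threshold. A turned sign counted as reversed only if the value was called before or after. For the day 4 difference of GSK343, which has no test, unchanged meant the same sign and a shift below the SD within its groups. The day 4 difference of GSK343 was 3.64 for Mymx and 2.39 for Mylpf with a pseudocount of 0.1, and 3.77 and 2.40 with voom on recovered reads, a setting chosen after seeing the data. Mylpf lost its call from ES cells to day 8 in the mutant with the pseudocount of 0.1 (-2.35) and with voom (-2.37), and from ES cells to day 4 in wild type with voom (-2.89). With only the groups compared in the fit, which leaves fewer samples, Mylpf lost its call from ES cells to day 8 with GSK343 (-1.54, adjusted p = 0.202) and from ES cells to day 4 in wild type (-2.61, adjusted p = 0.124), and Mymx gained one in GSK343 then DMSO against DMSO then DMSO (1.87, adjusted p = 0.0437). With median-ratio scaling Mymx gained one from ES cells to day 4 in wild type (-3.00, adjusted p = 0.0461). That scaling moved single libraries by up to 0.385 on the log2 scale, in the replated table. The cause of these changes was not tested. No filter on low values changed 0 calls of the pair.

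The replicate number as a block gave calls for Mymx from ES cells to day 4 in wild type (-2.97, adjusted p = 0.0252), for Mylpf from ES cells to day 4 in the mutant (-1.99, adjusted p = 0.0464) and for Mymx from ES cells to day 8 with GSK343 (-1.62, adjusted p = 0.0473), and changed no other call of the pair. In the GSK343 table same-numbered pairs deviated together, with correlations of 0.357 to 0.666, but each comparison has 2 pairs, too few to judge a pairing. In mutant against wild type in ES cells and on day 8, and in the replated table, a pairing was not borne out. These comparisons have fewer than 3 pairs or a pair whose deviations correlate at or under 0.1.

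Leaving out 1 library at a time gave these ranges where a call changed. From ES cells to day 8 with GSK343 they ran from -2.65 to -0.59 for Mymx and from -2.35 to -0.73 for Mylpf. In mutant against wild type on day 8 they ran from 2.42 to 3.91 and from 1.77 to 2.91. In wild type from ES cells to day 4 they ran from -4.03 to -2.41 and from -3.58 to -2.12, and to day 8 from -4.45 to -2.96 for Mymx. In the mutant to day 8 they ran from -2.50 to -2.04 for Mylpf. In the replated table they ran from 0.92 to 2.98 for Mylpf in GSK343 then DMSO against DMSO then DMSO, from 0.65 to 3.48 and 1.72 to 3.88 in GSK343 then GSK343 against DMSO then DMSO, and from 0.96 to 3.79 and 2.77 to 4.53 against DMSO then GSK343.

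The number of genes called in either direction moved by over 1.5 times in several comparisons. With the block it went from 88 to 270 for GSK343 on day 4, from 1631 to 3122 for GSK343 to day 8, from 2794 to 4377 for the difference of courses, and from 214 to 616 for the mutant on day 8. With only the groups compared it went from 4434 to 2704 for GSK343 on day 8, from 1631 to 183 for GSK343 to day 8 and from 0 to 996 for GSK343 then DMSO against DMSO then DMSO. With voom it went from 214 to 4 for the mutant on day 8 and from 4131 to 1552 for wild type to day 8. In all, 43 such counts moved so far and 95 did not. Libraries of 2.27 to 8.34 M reads limit the replated values, where the pair often rests on under 30 reads.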

Other observations

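The gene next to Mymx, Slc29a1, which encodes a nucleoside transporter, took a similar course. Its mean was 167 RPKM in DMSO ES cells, 13.4 RPKM in DMSO on day 8 and 55.2 RPKM with GSK343 on day 8, and it was higher with GSK343 on day 8 by 1.89 (limma adjusted p = 0.000225). Tbc1d10b, 380 bases from Mylpf, had means of 47.0, 27.1 and 28.4 RPKM in the same groups.

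Of the 10 genes most like Mymx in pattern, Hsf2bp (2.84, limma adjusted p = 0.0448), Tex14 (2.45, adjusted p = 0.0497) and Ooep (3.45, adjusted p = 0.0334) were called higher in mutant than in wild type on day 8, where 1.3% of all genes were called higher. Mymx had 2.96 there (adjusted p = 0.116), and the difference between the genes was not tested. Without wild-type replicate 3 the values were 3.57, 3.10 and 4.28, and 3.91 for Mymx. With GSK343 on day 8 they were higher by 3.58, 2.99 and 3.65. These genes were chosen for their likeness to Mymx over the same wild-type and mutant libraries, so their mutant values are no independent check. The mutant values of the rest of the 10 are not given here.

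The ratio of Mymx to Mylpf in RPKM was 0.403 to 1.17 in ES cell libraries. On mutant day 8 it was 0.714, 2.25 and 1.52 in replicates 1, 2 and 3. On day 4 it was 0.230 and 0.135 in DMSO, and 0.331, 0.276 and 0.616 in wild type. The lowest ratio, 0.103, was found in replicate 1 of wild-type day 8, with 2 reads of Mymx, and in replicate 1 of DMSO then DMSO, with 6.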
